A study of Mus musculus with 11 samples.

Results

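A conditionally immortalized line and a wild-type line derived from the mouse stomach, both progenitors of interstitial cells of Cajal (ICC), were compared on 6 of the study's 11 expression arrays, taken by their titles: 3 arrays of the immortalized line and 3 of the wild-type line. The wild-type line, 2xSCS2F10, came from the stomach muscle wall of C57BL/6J mice and was grown at 37 °C in NeuroCult Neural Stem Cell Proliferation Medium with 5% cell-free chick embryo extract. It is called the C57BL/6J line below. The immortalized line, 2xSCS70, came from the same tissue of H-2Kb-tsA58 mice. Its culture ran at 39.5 °C in that base medium, with no interferon-gamma added, and for it the labels name no extract. It is called the tsA58 line. Each line is 1 clone, so that clone, strain, transgene, culture temperature and extract differ together and cannot be told apart. Muscle wall of both strains (2 arrays of C57BL/6J, 3 of H-2Kb-tsA58) served as background, because it holds the strain and the transgene without the culture. The titles call the arrays of a line biological replicates, while the series text counts chips per sample. The spread between these arrays may therefore be technical. P-values and standard errors (SE) rest on each gene's spread within groups, shared over the lines and the muscle walls. Fits of the 6 line arrays alone leave muscle wall out.

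ICC are the pacemaker cells of the gut's muscle layers and depend on the receptor tyrosine kinase Kit, while their progenitors are known by Cd34, Cd44, Insr and Igf1r with little Kit. The H-2Kb-tsA58 transgene encodes a heat-sensitive form of the large T protein of SV40, expressed from a class I MHC promoter that interferons induce. Large T drives cells into DNA synthesis by binding the Rb family and blocks p53, and at the higher temperature its protein is unstable, so such cells can be grown and then released from it. The transgene's own transcript was not analysed here.

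Values are log2 intensities, and the median probe set of an array lay between 4.66 and 4.84, a level that cannot be told from background. Differences are tsA58 line minus C57BL/6J line in log2 units, given ± SE from limma, and a called gene had a change of at least 2-fold and a Benjamini-Hochberg adjusted p under 0.05. Array replicate 3 of the tsA58 line stood apart. It lay at 19 on the second principal component (15.2% of the variance), against 62.7 and 67.5 for replicates 1 and 2 and -56.3 to -48 for the C57BL/6J line, and its log2 ratio of 3' to 5' actin controls was 0.05, against 0.51 and 0.85 in the other tsA58 arrays and 0.99 to 1.04 in the C57BL/6J line. Hybridisation controls were also lower in the tsA58 line (7.93 to 8.26) than in the C57BL/6J line (9.33 to 9.90), and their part in the results was not tested. Centring the arrays on them moved the median difference of all genes from -0.04 to 1.45, so a direction given here holds relative to most genes of the same array.

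The lines differed in sex-linked genes and in 1 of the genes taken to tell strains apart. Xist, the RNA that silences 1 X chromosome in females, read 11.58, 11.73 and 11.60 in the C57BL/6J line and 4.91, 4.99 and 5.07 in the tsA58 line. The Y-linked gene Eif2s3y read 3.24, 3.02 and 3.09 against 7.38, 8.13 and 8.01, and Kdm5d, also Y-linked, read 2.45, 2.49 and 2.68 against 6.33, 6.54 and 6.19. The 3 arrays of each line lay together in these genes, tsA58 line replicate 3 included, and sex is a further difference between the lines. Nnt, a mitochondrial transhydrogenase of which C57BL/6J mice carry a deletion, was higher in the tsA58 line (2.15 ± 0.21 in the limma fit) and was not called between the muscle walls. The other strain check genes tested, Wdfy1 (0.22) and Glo1 (0.05), were not called between the lines.

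Of 13285 genes tested, 1113 (8.38%) were higher and 767 (5.77%) lower in the tsA58 line, and in 40.3% the 3 arrays of a line did not overlap with those of the other line. Without tsA58 line replicate 3, 1687 genes (12.7%) were higher and 988 (7.46%) lower. The 11 called genes with the highest fold changes were Ly6e, Usp18, Rtp4, Iigp1, Ifi27l2a, Ddx60, Trim30a, Gbp3, Ms4a4d, Oas3 and Ifit3, from 9.76 down to 4.93 on the log2 scale, and most of them are known as interferon-induced. The lowest were of mixed kind. They took in the imprinted non-coding RNA Meg3 (-7.34 ± 0.50), Xist (-6.65 ± 1.26), Tmem45a (-5.98 ± 0.23), the scavenger receptor gene Olr1 (-5.96 ± 0.97), the germ cell helicase Ddx4 (-5.85 ± 0.43), Myl9 (-5.83 ± 0.23), the complement protease C1s1 (-5.70 ± 0.27) and the neuronal membrane protein Gpm6a (-5.64 ± 0.51).

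**Figure D1:**
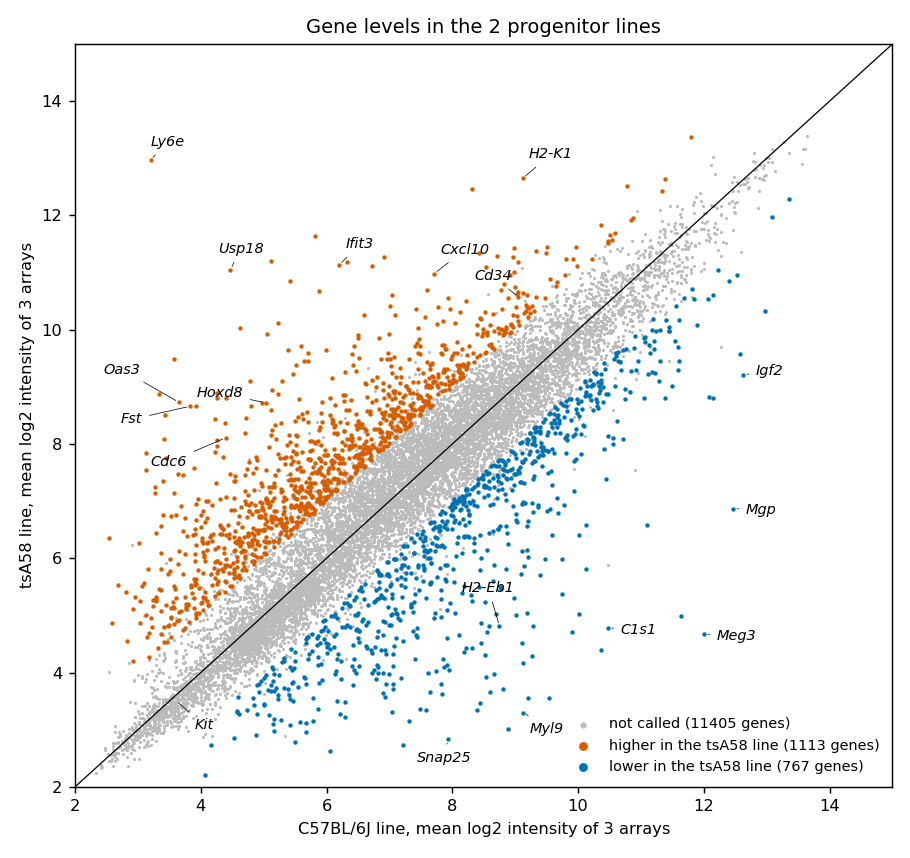
Mean log2 intensity of each of 13285 genes in the C57BL/6J line (x axis, 3 arrays) and the tsA58 line (y axis, 3 arrays), with the line of equal levels drawn. The 1113 genes called higher and 767 called lower in the tsA58 line are coloured and some are named, with Ly6e farthest above the line and Meg3 farthest below it, while Kit lies on it near background.

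Promoters of some genes higher in the tsA58 line are shown first, because many genes known as interferon-induced share a short DNA element. Whether interferon acted in these cultures was not tested. Interferons act through their receptors, the kinases Jak1 and Tyk2 and transcription factors, Stat2 and Irf9 among them, which bind the interferon-stimulated response element (ISRE). In RefSeq windows of GRCm38.p6 from 250 bases before to 50 bases after each start site, the ISRE core, GAAA repeated with any 2 bases between, was found on either strand in 3.44% of 32851 windows. Of the interferon-stimulated effector genes called higher, 28 had a window and 16 of them (57.1%) held the core, against 3.55% of 10663 tested genes with a window and 6.08% of all genes called higher with a window. The effectors were listed as known interferon targets, so their share is no test of interferon action. The windows of Oas3 (chr5:120777610-120777909, minus strand), Ifit3 (chr19:34583279-34583578, plus strand) and Ifit1 (chr19:34640639-34640938, plus strand) show the core in capitals, 75 bases before the start in Oas3, 156 and 122 bases before it in Ifit3, and 104 and 85 bases before it in Ifit1.
Oas3: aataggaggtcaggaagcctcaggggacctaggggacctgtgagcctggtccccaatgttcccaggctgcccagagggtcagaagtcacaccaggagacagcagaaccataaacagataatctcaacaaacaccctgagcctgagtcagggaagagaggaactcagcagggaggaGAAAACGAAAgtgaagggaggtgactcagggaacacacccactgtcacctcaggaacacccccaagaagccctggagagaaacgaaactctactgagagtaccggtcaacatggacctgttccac
Ifit3: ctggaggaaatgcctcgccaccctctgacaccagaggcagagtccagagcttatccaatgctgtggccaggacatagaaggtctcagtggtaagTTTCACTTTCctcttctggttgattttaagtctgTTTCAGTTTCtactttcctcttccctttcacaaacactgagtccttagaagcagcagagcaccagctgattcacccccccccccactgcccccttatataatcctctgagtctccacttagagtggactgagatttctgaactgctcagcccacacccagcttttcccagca
Ifit1: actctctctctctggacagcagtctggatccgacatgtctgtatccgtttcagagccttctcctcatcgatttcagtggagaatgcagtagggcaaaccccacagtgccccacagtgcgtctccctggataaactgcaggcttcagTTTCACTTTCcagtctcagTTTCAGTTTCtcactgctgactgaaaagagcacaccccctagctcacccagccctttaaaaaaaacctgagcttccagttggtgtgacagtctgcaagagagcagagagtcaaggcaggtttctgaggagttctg

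MHC class I promoters carry a shorter form of the element, GAAGTGAAA, found on either strand in 0.505% of the windows. It is shown in capitals for H2-K1 (chr17:34000284-34000583, minus strand), the gene whose promoter drives the transgene, and for its neighbour in function H2-D1 (chr17:35262844-35263143, plus strand). It starts 104 bases before the start site in the first of the H2-K1 windows and 150 bases before it in H2-D1. The 10-base core was not found in either window, and a match or its absence says only what letters the window holds.
H2-K1: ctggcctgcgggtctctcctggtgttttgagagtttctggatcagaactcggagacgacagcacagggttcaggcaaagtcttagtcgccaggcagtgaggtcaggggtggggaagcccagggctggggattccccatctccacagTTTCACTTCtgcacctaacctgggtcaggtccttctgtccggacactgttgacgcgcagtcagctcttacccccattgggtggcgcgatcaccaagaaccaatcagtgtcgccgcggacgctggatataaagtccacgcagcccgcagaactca
H2-D1: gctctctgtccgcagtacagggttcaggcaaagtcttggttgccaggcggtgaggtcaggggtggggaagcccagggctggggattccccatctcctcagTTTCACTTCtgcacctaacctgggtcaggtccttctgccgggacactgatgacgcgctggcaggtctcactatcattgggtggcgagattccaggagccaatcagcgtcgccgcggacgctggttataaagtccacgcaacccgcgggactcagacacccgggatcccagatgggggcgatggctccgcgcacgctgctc

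The interferon-stimulated effectors rose almost as a whole in the tsA58 line. Of 41 tested, 39 were higher and 1 was lower, with a median difference of 3.28 against -0.04 over all genes. The higher calls were 95.1% of the list, against 8.38% of all genes tested. In 40 the tsA58 arrays all lay above the C57BL/6J arrays, as they did in 18.4% of all genes tested. Without tsA58 line replicate 3, 40 were higher and the median was 3.74. In muscle wall, the tsA58 minus C57BL/6J median of the same genes was 0.23, with 3 higher and 1 lower.

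Ly6e, a GPI-anchored surface protein induced by interferon, read 3.35, 2.88 and 3.37 in the C57BL/6J line and 12.96, 13.10 and 12.84 in the tsA58 line, replicate 3 included (9.76 ± 0.50, limma adjusted p = 1.5e-06). Its level in the C57BL/6J line was below the array median. A second Ly6e probe set gave 3.84 and was called. Ifit3, which binds and restrains viral RNA with its partner Ifit1, read 7.08, 5.62 and 5.91 against 11.45, 12.09 and 9.85 (4.93 ± 0.66, limma adjusted p = 0.000606). Oas3, a sensor of double-stranded RNA that activates RNase L, read 3.81, 3.46 and 3.68 against 8.95, 9.0 and 8.25 (5.08 ± 0.24, limma adjusted p = 8.5e-07). The lines did not overlap in any of these genes, and replicate 3 was the lowest tsA58 array in each. The guanylate-binding protein Gbp3 (5.41 ± 0.30), the GTPase Iigp1 (5.90 ± 0.64), and Usp18, which removes Isg15 from proteins and dampens receptor signalling (6.58 ± 0.67), were higher too.

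Not every effector followed. Ifitm1, which blocks virus entry and is also a mesenchymal surface protein, was lower, at 7.44, 6.41 and 7.25 in the C57BL/6J line against 4.54, 4.91 and 5.55 in the tsA58 line (-2.03 ± 0.36, limma adjusted p = 0.0029). Its relative Ifitm3 was higher (1.25, limma adjusted p = 0.0021). The GTPase Ifi47 gave 1.42 and did not pass (limma adjusted p = 0.055). The influenza resistance GTPase Mx1 depended on the array: it read 7.65 and 7.86 in tsA58 line replicates 1 and 2 but 4.42 in replicate 3, against 3.97 to 4.15 in the C57BL/6J line.

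Of 25 sensors and signalling genes, 11 were higher and 0 lower in the limma fit, with a median of 0.62 (12 and 6 at an unadjusted p below 0.05, and 11 and 2 without tsA58 line replicate 3). Irf7, the factor that amplifies interferon transcription, read 6.42, 6.11 and 5.44 in the C57BL/6J line and 9.74, 10.14 and 9.06 in the tsA58 line (3.65 ± 0.40, limma adjusted p = 0.000172). Stat2 (2.21) and Irf9 (2.24) were higher, as were the RNA sensors Ifih1 (3.40 ± 0.40), Ddx58 (2.07) and Tlr3 (2.47), the DNA sensors Zbp1 (3.81 ± 0.43) and Cgas (1.91), and the nuclear body protein Sp100 (3.47 ± 0.33). The type I receptor chains and their kinase gave negative values short of 2-fold: Ifnar1 gave -0.92 (limma adjusted p = 0.0051), Ifnar2 -0.95 (0.012) and Tyk2 -0.84 (0.0046). The arrays of the lines did not overlap in these 3 genes, as in 40.3% of all genes tested. The 3 values turn positive when arrays are centred on the hybridisation controls. The interferon-gamma receptor chain Ifngr1 was higher (1.25), and was also higher in tsA58 muscle wall (1.14).

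The 6 interferon ligands of the list that had a probe set, Ifna1, Ifna2, Ifna4, Ifna5, Ifnb1 and Ifng, did not pass the filter on low values and were not tested. Their highest line levels were 4.56, 4.06, 3.46, 3.86, 4.72 and 3.11, where array medians ran from 4.66 to 4.84. Probe sets at that level cannot show a low level of a transcript.

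Of 19 genes of antigen presentation and processing, 9 were higher and 1 was lower, with a median of 0.92. H2-K1, the class I heavy chain, read 9.49, 8.98 and 8.89 in the C57BL/6J line and 12.60, 13.07 and 12.29 in the tsA58 line (3.53 ± 0.37, limma adjusted p = 0.000117), and 1.06 more in tsA58 than in C57BL/6J muscle wall (limma adjusted p = 0.093). H2-D1, a second heavy chain, read 8.41, 8.19 and 8.34 against 12.38, 12.82 and 12.22 (4.16 ± 0.33). The lines were well apart on every array. H2-K1 and H2-D1 are close in sequence and class I alleles differ between strains; the part of probe sequence in these values was not tested. Nlrc5, the transactivator of class I genes, went from 3.46, 2.98 and 3.79 to 8.18, 8.61 and 7.46 (4.67 ± 0.40, limma adjusted p = 3.77e-05). B2m, the class I light chain, was higher by 1.57 ± 0.21, the peptide transporter subunits Tap1 and Tap2 by 2.45 and 1.29, and the immunoproteasome subunits Psmb8 and Psmb9 by 2.94 and 2.80. Other genes of class I presentation were not called: the trimming peptidase Erap1 gave 0.92, Tapbp, which encodes tapasin, 0.61, Psmb10 0.46, Psme1 0.41, H2-M3 0.30, Tapbpl -0.10 and Calr -0.28.

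Among class II genes the calls were mixed. H2-Eb1, a class II beta chain, read 8.61, 8.50 and 9.13 in the C57BL/6J line and 4.66, 4.73 and 5.05 in the tsA58 line (-3.94 ± 0.40, limma adjusted p = 0.00011). It was higher in tsA58 than in C57BL/6J muscle wall (1.52, limma adjusted p = 0.037), and the difference between the line and tissue differences passed (limma adjusted p = 0.000436). H2-Aa and H2-Ab1, the other class II chains measured, gave -0.88 and 0.12 near background and were not called. Cd74, the invariant chain, was higher (2.15, limma adjusted p = 0.012).

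Of 21 chemokines tested, 3 were higher and 4 lower, with a median of 0.08 (3, 7 and -0.17 without tsA58 line replicate 3). Ccl5 read 4.92, 4.46 and 4.97 in the C57BL/6J line and 9.03, 8.68 and 9.63 in the tsA58 line (4.33 ± 0.32, limma adjusted p = 1.57e-05), and Cxcl10, an interferon-induced attractant of T cells, 7.83, 7.38 and 7.93 against 10.61, 10.90 and 11.43 (3.27 ± 0.29). In both genes replicate 3 was the highest array. Cxcl1, an attractant of neutrophils, read 10.52, 10.70 and 10.14 against 7.20, 7.51 and 7.45 (-3.07 ± 0.24, limma adjusted p = 2.17e-05), and its relatives Cxcl2 (-2.72 ± 0.23) and Cxcl15 (-2.17 ± 0.31) were lower too, and Cxcl11, the third called higher, is an attractant of T cells like Cxcl10. Ccl20 was lower (-2.20 ± 0.59) although the lines overlapped, with replicate 3 at 8.24 against 5.91 and 5.53 in the other tsA58 arrays. Cxcl5 was near background except in that array, where it read 10.01. Il15, a cytokine of natural killer cells, was higher by 3.15 ± 0.40.

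**Figure D2:**
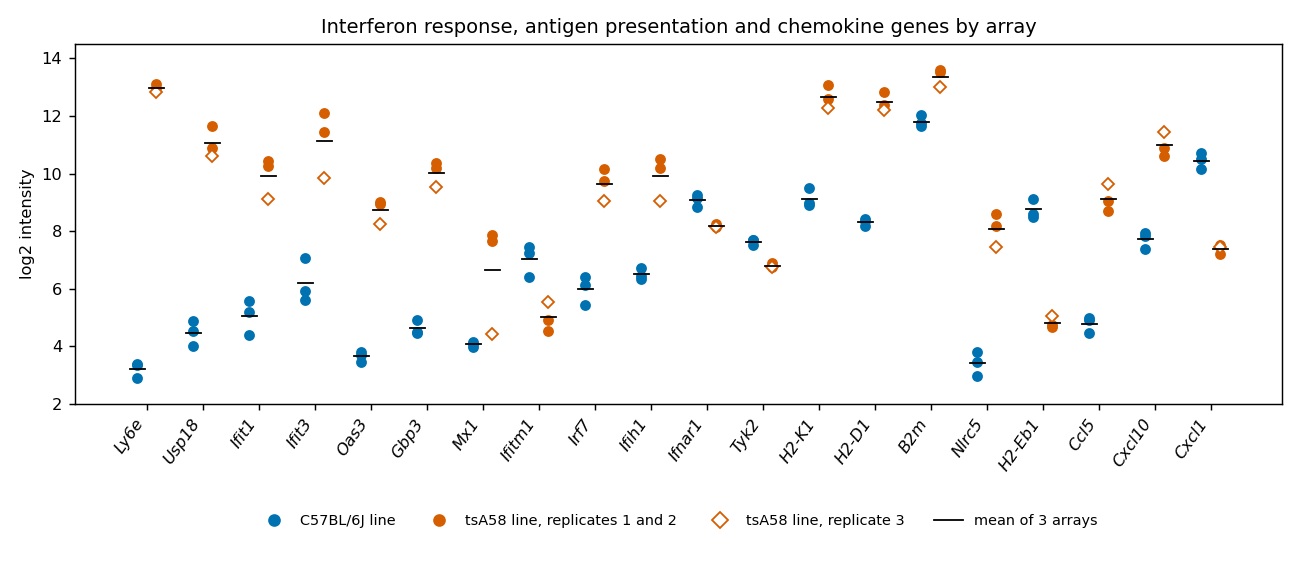
Log2 intensity of 20 genes of the interferon response, antigen presentation and the chemokines on each of the 6 line arrays (y axis), with blue points for the C57BL/6J line, orange points for the tsA58 line, open diamonds for its replicate 3 and bars for the mean of 3 arrays. Ly6e runs from 2.88 to 3.37 in the C57BL/6J line and from 12.84 to 13.10 in the tsA58 line, H2-Eb1 and Cxcl1 lie lower in the tsA58 line, and Mx1 of replicate 3 (4.42) lies beside the C57BL/6J arrays.

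DNA replication genes were the list with the next highest share of higher calls. E2F factors, held in check by Rb, turn on the genes that license origins, copy DNA and make nucleotides. Of 38 such genes tested, 30 were higher and 0 lower in the limma fit (34 and 0 at an unadjusted p below 0.05), with a median of 1.92, and without tsA58 line replicate 3, 32 were higher with a median of 2.29. In muscle wall the median of the same genes was -0.74, with 0 higher and 7 lower in tsA58 tissue.

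The E2F site, searched as TTTCCCGC, TTTCGCGC, TTTGCCGC or TTTGGCGC on either strand, was found in 2.26% of all windows, in 4.48% of the windows of tested genes and in 10 of 25 (40%) windows of replication genes called higher. It was found in 7.92% of the windows of all genes called higher, and in 0 of 4 windows of mitosis genes called higher. The replication list was drawn up to take in known E2F targets, so its share is no test of E2F action. The site is shown in capitals in the windows of Cdc6 (chr11:98907901-98908200, plus strand), 138 bases before the start, and of Mcm5 (chr8:75109259-75109558, plus strand), where 2 overlapping matches begin 153 and 149 bases before it.
Cdc6: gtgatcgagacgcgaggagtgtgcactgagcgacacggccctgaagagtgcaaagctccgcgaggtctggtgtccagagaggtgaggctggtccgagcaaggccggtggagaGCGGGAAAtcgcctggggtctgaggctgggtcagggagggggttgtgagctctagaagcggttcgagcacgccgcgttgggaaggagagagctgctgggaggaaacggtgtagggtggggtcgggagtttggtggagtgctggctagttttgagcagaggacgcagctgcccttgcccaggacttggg
Mcm5: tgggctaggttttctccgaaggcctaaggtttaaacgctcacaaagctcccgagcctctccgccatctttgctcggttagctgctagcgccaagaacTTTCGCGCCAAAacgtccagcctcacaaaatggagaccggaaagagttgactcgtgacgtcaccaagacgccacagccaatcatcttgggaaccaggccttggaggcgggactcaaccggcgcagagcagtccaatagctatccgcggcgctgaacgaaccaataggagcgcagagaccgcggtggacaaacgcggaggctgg

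Cdc6, which loads the replicative helicase, read 4.14, 3.65 and 5.42 in the C57BL/6J line and 8.74, 8.64 and 6.96 in the tsA58 line (3.71 ± 0.58, limma adjusted p = 0.0016). Mcm5, a helicase subunit, read 5.79, 6.03 and 7.94 against 10.49, 10.93 and 9.34 (3.67 ± 0.61, limma adjusted p = 0.0021). In both genes C57BL/6J line replicate 3 was the highest of its group and tsA58 line replicate 3 the lowest of its own, and the lines still did not overlap. All 6 subunits of the Mcm helicase rose, Mcm2 (1.43), Mcm3 (3.17), Mcm4 (2.03), Mcm5, Mcm6 (2.13) and Mcm7 (2.58), as did Mcm10 (2.69), another replication factor. The primase subunit Prim1 (3.36 ± 0.56), the ribonucleotide reductase subunit Rrm2 (3.56 ± 0.96), the G1/S cyclin Ccne2 (3.22) and the repair protein Brca1 (3.16) were higher, as was E2f1 itself (1.39). Rrm2 and, from the list of growth-related chromatin genes, the remodeller Hells (2.62 ± 0.49) were called in the opposite direction in muscle wall, where tsA58 tissue was lower by 3.50 and 2.11. Rrm2 did not pass without C57BL/6J line replicate 1 or 2 or tsA58 line replicate 1 or 2 (limma adjusted p = 0.086, 0.08, 0.065 and 0.052), nor with the actin ratio as a covariate (limma adjusted p = 0.12). Licensing factor Cdt1 (0.50), Orc1 (0.30) and E2f2 (0.05) did not pass.

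Of 33 genes of mitosis, 6 were called higher and 0 lower in the limma fit (22 and 0 at an unadjusted p below 0.05). Their median was 1.71, and in 28 the tsA58 arrays all lay above the C57BL/6J arrays, as they did in 18.4% of all genes tested, with the kinases Bub1 (2.99 ± 0.89), Aurkb (2.06 ± 0.64) and Plk1 (1.91 ± 0.53) and the separase Espl1 (1.88 ± 0.47) among them. The fit shares the spread of a gene with muscle wall, where the mean level of the list ran from 4.72 to 7.70 in tsA58 tissue. With the 6 line arrays alone 23 of the 33 were called higher, and without tsA58 line replicate 3, 14. Mki67, the proliferation marker, read 7.42, 6.90 and 8.56 in the C57BL/6J line and 10.33, 10.15 and 8.35 in the tsA58 line, with replicate 3 inside the range of the other line (1.98, limma adjusted p = 0.18).

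Of 23 genes of the Rb, p53 and G1 network, 2 were higher and 0 lower, with a median of 0.05 (6 higher and 1 lower without tsA58 line replicate 3). The higher calls were 8.7% of the list, near the 8.38% of all genes tested. Rb1, the retinoblastoma gene, was higher by 1.07 ± 0.32 (limma adjusted p = 0.034), with replicate 3 at 6.68 beside 6.39 to 6.58 in the C57BL/6J line. The atypical repressor E2f7 was higher by 2.35 ± 0.67 with overlapping arrays. Cdkn2a, which encodes p16 and p19Arf, read 6.59, 6.24 and 7.16 against 7.69, 7.96 and 6.31 and did not pass (0.66 ± 0.39, limma adjusted p = 0.25), but passed without replicate 3 (1.16, limma adjusted p = 0.0082). The p53-driven inhibitor Cdkn1a, at 11.07 to 11.30 in the C57BL/6J line and 11.14 to 11.61 in the tsA58 line, gave 0.16 (limma adjusted p = 0.62).

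Of 23 p53 target genes tested, 10 were higher and 1 lower, with a median of 0.61. Btg2, an antiproliferative gene, read 7.05, 7.14 and 6.79 in the C57BL/6J line and 10.25, 9.92 and 9.60 in the tsA58 line (2.93 ± 0.25, limma adjusted p = 4.38e-05). Its second probe set gave 0.78 and was not called. Eda2r (2.46 ± 0.36), Trp53inp1 (2.33 ± 0.50), Ccng1 (1.85 ± 0.26), Phlda3 (1.73), the apoptosis gene Bbc3 (1.67) and Mdm2 (1.03), which degrades p53, were higher as well, and Mdm2 fell short of 2-fold without tsA58 line replicate 3 (0.88). Pmaip1, which encodes the apoptosis protein Noxa, was lower, at 5.93, 5.32 and 5.23 in the C57BL/6J line against 3.24, 2.50 and 2.65 in the tsA58 line (-2.70 ± 0.28, limma adjusted p = 0.000132). It was also lower in tsA58 muscle wall (-1.67).

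**Figure D3:**
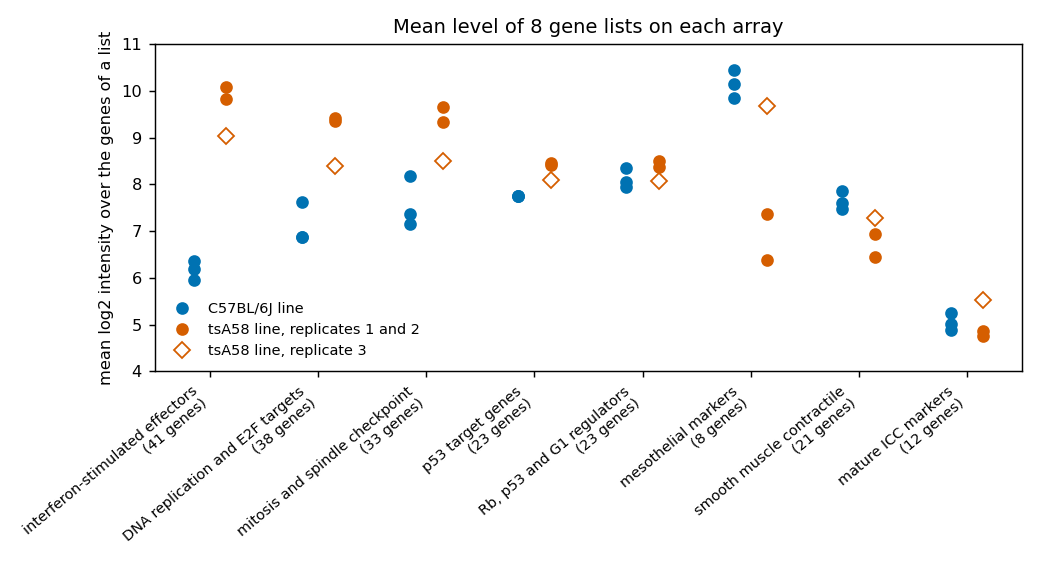
Mean log2 intensity over the tested genes of 8 lists (y axis) on each line array, with blue points for the C57BL/6J line, orange points for the tsA58 line and open diamonds for its replicate 3. The interferon effectors stand at 5.96 to 6.37 in the C57BL/6J line and 9.03 to 10.08 in the tsA58 line, and the mesothelial markers of replicate 3 stand at 9.67, close to the C57BL/6J arrays (9.85 to 10.44) and above the other tsA58 arrays (6.38 and 7.37).

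No identity gene of mature ICC passed the test. Kit read 3.35, 3.57 and 3.87 in the C57BL/6J line and 3.16, 3.56 and 3.79 in the tsA58 line, below the array median in every array, and 6.83 to 8.61 in muscle wall. Of 12 genes of mature ICC, 0 were called in the limma fit, and 1 higher and 1 lower had an unadjusted p below 0.05. With the 6 line arrays alone 5 of them could be tested and 0 were called. Over all 13285 genes 14.2% were called either way. Ano1, the chloride channel of ICC pacemaking, was detected in both lines (6.02, 6.56 and 6.18 against 7.33, 6.29 and 7.82) and gave 0.89 ± 0.33 (limma adjusted p = 0.08).

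Of the progenitor markers, Cd34 and Cd44 read well above the array medians in both lines. Cd34 read 9.17, 8.72 and 9.26 in the C57BL/6J line and 11.12, 9.79 and 10.81 in the tsA58 line (1.52 ± 0.32, limma adjusted p = 0.0069). Cd44, the hyaluronan receptor, was at 10.71 to 10.99 and 10.67 to 11.74 and gave 0.33 ± 0.26 (limma adjusted p = 0.41). Its 2 other probe sets gave 0.13 and 1.26, and 1 of them was called. Insr, the insulin receptor, gave -0.29 ± 0.39 (limma adjusted p = 0.64), and Igf1r, the IGF1 receptor, 1.10 ± 0.32 (limma adjusted p = 0.03), although its 3 other probe sets gave 0.31 to 0.75 and none was called. Kitl, the ligand of Kit, was higher in the tsA58 line by 1.11 ± 0.23 (limma adjusted p = 0.0067) and lay below its muscle wall level (10.22 to 10.88). Its 3 other probe sets gave 0.12 to 1.19, and 1 of them was called.

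Several growth factor genes were lower in the tsA58 line. Igf2, a fetal growth factor, read 12.49, 12.77 and 12.63 in the C57BL/6J line and 8.66, 8.95 and 10.02 in the tsA58 line (-3.42 ± 0.50, limma adjusted p = 0.001). The IGF-binding proteins Igfbp7 (-3.34 ± 0.54) and Igfbp4 (-3.26 ± 0.51) and Igf1 (-2.18 ± 0.70) were lower, and Igf1 did not pass without replicate 3 (limma adjusted p = 0.061). Pdgfra, the receptor of the fibroblast-like cells beside ICC, read 8.50, 8.38 and 8.43 against 5.34, 5.80 and 8.10, so that replicate 3 stood near the C57BL/6J line (-2.03 ± 0.55, and -2.87 without replicate 3). Fgfr1 (-2.13) and Fgfr2 (-1.05) were lower. In all, 8 of the 27 progenitor and growth factor genes were lower and 4 higher (7 and 2 without replicate 3).

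Markers of other cell types of the stomach wall differed in a few genes. Myl9, the smooth muscle myosin light chain, read 8.94, 8.73 and 9.72 in the C57BL/6J line and 3.31, 3.25 and 3.34 in the tsA58 line (-5.83 ± 0.23, limma adjusted p = 4.98e-07). Tagln (-2.55 ± 0.81) and Mylk (-1.66 ± 0.53) were the other smooth muscle genes called lower of 21, and both read close to the C57BL/6J line in replicate 3 (10.32 and 8.44). Without that array 6 of the 21 were lower. Actg2 and Myh11, which define differentiated smooth muscle, were below the array median in both lines. Snap25, the vesicle fusion protein of neurons, read 7.87, 7.61 and 8.31 against 2.76, 2.84 and 2.89 (-5.10 ± 0.27, limma adjusted p = 1.99e-06), with Uchl1 (-3.32 ± 0.46) also lower. Those were 2 of 19 neuronal genes. Prph, a neuronal filament, was called higher (1.20 ± 0.32), but its 2 other probe sets gave -0.18 and -0.13.

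Mesothelial markers, genes of the serosal lining, were lower in the tsA58 line apart from its replicate 3. Of 8 genes, 6 were lower and 0 higher, with a median of -2.53 (-1.04 with centring on the hybridisation controls). Wt1, a mesothelial transcription factor, read 10.48, 10.06 and 10.71 in the C57BL/6J line and 7.29, 6.95 and 9.52 in the tsA58 line (-2.50 ± 0.54, limma adjusted p = 0.0081). Lrrn4 read 9.35, 8.09 and 9.50 against 4.14, 2.97 and 8.79 (-3.68 ± 1.14, limma adjusted p = 0.041), and the keratins Krt7 (-3.03 ± 0.45) and Krt19 (-2.63 ± 0.74) and Msln, which encodes mesothelin (-1.75), were lower. In all 8 genes replicate 3 was the highest tsA58 array and lay nearer to the C57BL/6J mean than to the mean of replicates 1 and 2. Without replicate 3 all 8 were called lower, with a median of -3.35. With the 6 line arrays alone 3 were. Upk3b, a marker of mesothelium and urothelium, read 12.43 in replicate 3 against 8.80 and 7.85 in the other tsA58 arrays.

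Other cell types gave fewer calls. Of 15 macrophage and leukocyte genes 3 were lower, Csf1r (-2.27 ± 0.38), Cd68 (-1.41 ± 0.38) and Cd14 (-1.17 ± 0.35), of which Csf1r passed without replicate 3, and Cd68 and Cd14 turn positive with centring on the hybridisation controls (0.08 and 0.32). Ptprc, which marks all leukocytes, was below the array median on all 6 line arrays, as were C1qa and C1qb. The leukocyte integrin Itgb2 stood at 10.21, 9.95 and 9.58 in the C57BL/6J line and 4.11, 4.65 and 5.37 in the tsA58 line (-5.20 ± 0.47). Of 13 endothelial genes 0 were called in the limma fit (0 at an unadjusted p below 0.05, and 0 of the 6 that could be tested with the line arrays alone), and of 17 epithelial genes 2 were lower, the simple keratin Krt8 (-4.13 ± 0.42) and Krt19. Of 19 neural stem and neural crest genes, 2 were higher and 1 lower (10.5% and 5.26%, near the 8.38% and 5.77% of all genes tested). One of them, the mesenchymal factor Twist2, rose from 5.31, 5.43 and 5.52 to 8.29, 7.86 and 7.92 (2.61 ± 0.17, limma adjusted p = 1.06e-05). Ddx4, a germ cell helicase near background in both tissues (2.32 to 2.93), read 8.48, 8.18 and 9.97 in the C57BL/6J line and 2.56, 2.87 and 3.64 in the tsA58 line (limma adjusted p = 1.57e-05).

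Of 21 collagens, 6 were lower and 1 higher, with a median of -0.51 (0.98 with centring on the hybridisation controls). Col8a1, a network collagen, read 8.76, 9.07 and 8.60 in the C57BL/6J line and 3.59, 3.77 and 3.81 in the tsA58 line (-5.09 ± 0.41, limma adjusted p = 2.64e-05), and its partner chain Col8a2 gave -3.27 ± 0.32. Col1a2 read 12.91, 13.01 and 13.02 against 9.18, 9.31 and 12.50, so that its fall (-2.64 ± 0.75) rested on replicates 1 and 2. The basement membrane collagen Col4a1 was higher (1.66 ± 0.40). Among 32 proteoglycans and matrix glycoproteins, 6 were lower and 3 higher. Mgp, an inhibitor of calcification, read 12.49, 12.09 and 12.82 against 6.63, 5.91 and 8.07 (-5.60 ± 0.45, limma adjusted p = 2.64e-05). Vcan, the proteoglycan versican, read 8.05, 8.26 and 8.88 against 3.49, 3.38 and 3.17 (-5.05 ± 0.45). Nid1 (-3.61 ± 0.39) was lower, and Loxl1, which crosslinks elastin (2.22 ± 0.44), was higher.

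Among 19 metalloproteinases and inhibitors, 4 were higher and 3 lower, with a median of -0.09 (3, 5 and -0.48 without tsA58 line replicate 3). Mmp3, stromelysin, read 7.96, 7.43 and 7.92 in the C57BL/6J line and 10.43, 10.36 and 10.39 in the tsA58 line (2.62 ± 0.49, limma adjusted p = 0.0039), and Mmp10 (1.61 ± 0.50) and the neutrophil collagenase Mmp8 (1.60 ± 0.21) were higher. The gelatinase Mmp2, at 9.81, 10.33 and 9.68 against 6.52, 6.86 and 8.14, was lower (-2.76 ± 0.40, limma adjusted p = 0.000911), as were Adamts9 (-2.61 ± 0.65) and Mmp11 (-1.61 ± 0.38). Cell adhesion genes changed singly. Cdh11, the mesenchymal cadherin, read 9.87, 10.22 and 10.31 against 4.03, 4.18 and 9.21 (-4.32 ± 1.07, and -6.03 without replicate 3). Cadm1, an immunoglobulin-type adhesion protein, rose from 3.64, 3.55 and 4.62 to 9.99, 9.19 and 6.84 (4.74 ± 0.67). In both genes replicate 3 was the tsA58 array nearest to the C57BL/6J line. Of the integrins, Itgb3 was lower (-2.75 ± 0.39) and Itgb4 higher (2.74 ± 0.37).

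The Hox genes, which keep the position of a cell along the body axis, differed by cluster and paralogue group. Of 21 tested, 8 were higher and 5 lower. Of the 10 genes of paralogue groups 1 to 5, 5 were lower and 1 higher, with a median of -1.30 (which turns positive with centring on the hybridisation controls), while of the 7 genes of groups 9 to 13, 5 were higher and 0 lower, with a median of 2.17. These group limits were set after the values had been seen. Hoxa5, active in the developing stomach, read 9.42, 9.21 and 9.55 in the C57BL/6J line and 5.08, 5.88 and 6.18 in the tsA58 line (-3.68 ± 0.30, limma adjusted p = 2.64e-05), while its second probe set gave -0.96 and was not called. Hoxa2, Hoxa3, Hoxa4 and Hoxb2 were lower by 1.35 to 1.51. Hoxd8 read 5.04, 5.05 and 5.01 against 9.32, 9.82 and 7.03 (3.69 ± 0.56, limma adjusted p = 0.0013). Hoxc13 (2.76 ± 0.31), Hoxb13 (2.75 ± 0.30), Hoxc10 (2.66 ± 0.25), Hoxb9 (2.17 ± 0.40) and Hoxd9 (1.99 ± 0.57) were higher, as were the more anterior Hoxc4 (2.52 ± 0.26) and Hoxc6 (1.05 ± 0.23). All 4 called genes of the Hoxa cluster were lower, and all 6 called genes of Hoxc and Hoxd were higher, but Hoxa2 and Hoxa4 turn positive with centring on the hybridisation controls. In muscle wall Hoxa4 was higher in tsA58 tissue (1.34), opposite to the lines.

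**Figure D4:**
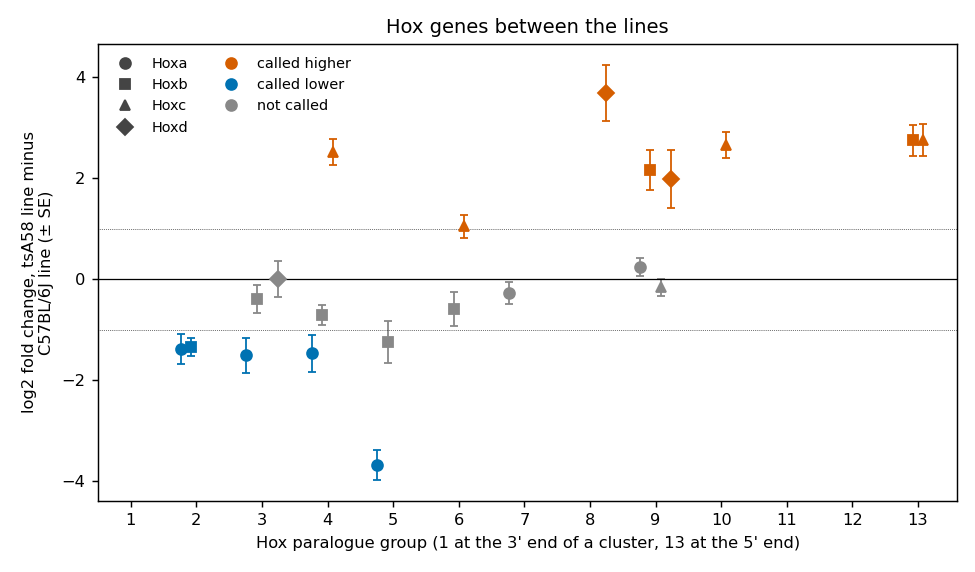
Log2 difference between the lines (tsA58 minus C57BL/6J, y axis, with SE) of 21 Hox genes by paralogue group (x axis), with the cluster as the shape and the call as the colour, and dotted lines at the 2-fold limits. The lowest value is that of Hoxa5 (-3.68) and the highest that of Hoxd8 (3.69), and all called genes of groups 9 to 13 lie between 1.99 and 2.76.

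Of 23 transcription factors of the stomach and gut mesenchyme tested, 8 were lower and 2 higher. The lower ones included the Hox cofactors Meis1 (-2.0 ± 0.27) and Meis2 (-1.76 ± 0.28), Wt1 and Eya1 (-1.79 ± 0.40). Foxf1, a target of hedgehog signalling in gut mesenchyme, was higher (1.51 ± 0.28), as it was in muscle wall (1.23). Tbx18, at 4.22, 4.13 and 4.71 in the C57BL/6J line against 6.41, 6.70 and 6.42, was higher by 2.15 ± 0.23.

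Of 22 imprinted genes tested, 5 were lower and 1 higher, and 3 of the 5, Meg3, Rian and Mirg, are non-coding RNAs transcribed from the maternal copy of the Dlk1-Dio3 region. Meg3 read 12.06, 12.11 and 11.86 in the C57BL/6J line and 4.41, 4.70 and 4.91 in the tsA58 line (-7.34 ± 0.50, limma adjusted p = 1.08e-05), and 8.45 to 11.19 in muscle wall of both strains. All 10 other Meg3 probe sets were lower too, by 0.18 to 8.02, and 4 of them were called. Rian read 7.90, 7.35 and 8.30 against 4.02, 4.36 and 4.30 (-3.62 ± 0.47), and Mirg 5.71, 5.32 and 6.24 against 3.97, 4.39 and 4.75 (-1.39 ± 0.31), which turns to 0.10 with centring on the hybridisation controls. The 3 tsA58 arrays lay together and far from the C57BL/6J arrays in Meg3, replicate 3 included, and the paternally expressed Dlk1 of the same region was below the array median in both lines. Igf2 and Impact (-1.31) were the others called lower, and Grb10 (1.02 ± 0.32) the one called higher, which did not pass without replicate 3 (limma adjusted p = 0.068).

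Of 31 genes of BMP, TGF-beta and activin signalling, 7 were lower and 3 higher. Fst, which traps activin, read 3.87, 4.10 and 3.52 in the C57BL/6J line and 9.07, 8.47 and 8.45 in the tsA58 line (4.83 ± 0.31, limma adjusted p = 8.21e-06), and Inhba, an activin subunit, was higher by 1.22 ± 0.26. The matrix protein Ltbp2 (-4.12 ± 0.23), the receptor Bmpr1b (-3.37 ± 0.24), the BMP antagonist Grem1 (8.29, 8.60 and 7.22 against 5.09, 4.76 and 5.29, -2.99 ± 0.31) and Bmp2 (-2.64 ± 0.22) were lower. Of 29 genes of Wnt, hedgehog and Notch signalling, 5 were higher and 3 lower (5 and 5 without tsA58 line replicate 3). The secreted Wnt antagonist Sfrp2 (3.21 ± 0.43), the receptor Notch1 (2.90 ± 0.56), Frzb (1.87 ± 0.38) and the Notch ligand Jag1 (1.83 ± 0.29) were higher, and Dkk3 (-3.88 ± 0.32), Wnt4 (-2.21 ± 0.60) and Wnt9a (-1.60 ± 0.27) were lower. Jag1 and Dkk3 were called in the opposite direction in muscle wall (-1.46 and 1.63). Of 25 EGF, FGF and related ligands 4 were lower and 0 higher in the limma fit (4 higher and 9 lower at an unadjusted p below 0.05, and 3 higher and 6 lower without tsA58 line replicate 3). They were led by the lymphatic growth factor Vegfc (-3.78 ± 0.36), with Vegfa (-1.91 ± 0.29), Hgf (-1.79 ± 0.30) and Fgf1 (-1.08 ± 0.31, which is -0.99 without tsA58 line replicate 3 and turns to 0.40 with centring on the hybridisation controls).

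The tsA58 line was grown at 39.5 °C and the C57BL/6J line at 37 °C. Of 28 heat shock and unfolded protein genes 2 were higher and 4 lower (4 and 4 without tsA58 line replicate 3). These are 7.14% and 14.3%, against 8.38% and 5.77% of all genes tested, and the part of temperature was not tested. Hsph1, a co-chaperone, read 7.76, 7.37 and 8.14 in the C57BL/6J line and 10.69, 9.86 and 9.74 in the tsA58 line (2.34 ± 0.28, limma adjusted p = 0.000326), and Hsp90aa1 was higher by 1.09 ± 0.20. Hspb1, a small heat shock protein, read 12.99, 12.10 and 12.66 against 9.66, 8.22 and 10.86 (-3.0 ± 0.52, limma adjusted p = 0.0026), and Hspb8 (-1.65 ± 0.21), Cryab (-1.62 ± 0.27) and Hmox1 (-1.62 ± 0.45) were lower. The inducible Hspa1a was below the array median on all line arrays (3.29 to 3.81).

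Of 25 glycolysis and hypoxia genes 4 were lower and 0 higher, with a median of -0.34 (1.15 with centring on the hybridisation controls). Aldoc, an aldolase, read 11.23, 10.61 and 11.46 against 5.42, 5.37 and 8.94 (-4.52 ± 0.79), and the lactate exporter Slc16a3 (-3.03 ± 0.39), Pfkfb3 (-2.02 ± 0.38, but -0.07 and not called on its other probe set) and the glucose carrier Slc2a1 (-1.88 ± 0.38) were the rest. Of 24 glutathione and NRF2 target genes 6 were lower and 0 higher, with a median of -0.73 (0.76 with that centring). Slc7a11, which imports cystine, read 8.20, 7.82 and 6.08 against 4.63, 4.63 and 4.93 (-2.63 ± 0.43, limma adjusted p = 0.002). Gsta3 (-3.32 ± 0.90), the glutathione synthesis enzyme Gclc (-1.59 ± 0.35) and Srxn1 (-1.37 ± 0.23, which turns to 0.12 with that centring) were lower as well. Of 25 genes of cholesterol and fatty acid synthesis 3 were lower and 1 higher (12% and 4%, against 5.77% and 8.38% of all genes tested). Of 29 respiratory chain subunits 0 were called in the limma fit or with the 6 line arrays alone, and 5 (2 higher and 3 lower) had an unadjusted p below 0.05.

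Of 24 inflammatory secretome and complement genes, 2 were higher and 2 lower, but without tsA58 line replicate 3 the counts were 1 and 10. Of 23 integrins and laminins, 1 was higher and 2 lower (2 and 3 without that array), of 18 cadherins and adhesion genes 3 and 2 (5 and 2), of 12 glial genes 2 and 1 (2 and 2), of 12 oncofetal and chromatin genes 2 and 1 (3 and 0), and of 18 immediate early genes 2 and 3. Over all genes tested 8.38% were higher and 5.77% lower (12.7% and 7.46% without that array). Of 5 adipocyte genes 0 were called in the limma fit, and 1 was lower at an unadjusted p below 0.05. With the 6 line arrays alone 3 were tested and 1 was lower.

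Some other called genes had further probe sets that were not called. These gave 0.89 for Bub1, 0.77 for Notch1, 0.51 for Foxf1, 0.26 for Loxl1, -0.42 for Gclc, -0.46 for Itgb3, -0.47 for Eya1, -0.84 for Hoxa3, -0.94 for Cxcl15, -0.93 and -0.61 for Hspb8, and -0.69 and -0.67 for Pdgfra.

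Some differences were present in muscle wall too, on arrays that share no sample with the lines. Of the 1113 genes higher in the tsA58 line, 120 (10.8%) were also higher in tsA58 muscle wall, which is 9.45% of the 1270 higher there. Of the 767 lower genes, 52 (6.78%) were lower in muscle wall, 12.2% of the 426 lower there. Another 33 genes (2.96% of the 1113) were higher in the line and lower in tissue, and 92 (12% of the 767) were lower in the line and higher in tissue. The tissues gave calls in 9.56% (higher) and 3.21% (lower) of all genes tested, so the 10.8% lies near the share over all genes. Among the genes lower in the line, the 6.78% lower in tissue stood against 3.21% of all genes. The 12% higher in tissue stood against 9.56% of all genes. Among the shared genes in which the line and tissue differences could not be told apart by the test, Rpgrip1 had the largest difference, at 9.89, 10.14 and 10.04 in the C57BL/6J line, 5.66, 5.49 and 3.95 in the tsA58 line, 10.65 and 10.83 in C57BL/6J muscle wall and 3.93, 3.95 and 5.09 in tsA58 muscle wall. Cap1, which acts on actin, differed by 3.86 between lines and 4.13 between tissues, Golt1b by 3.81 and 2.79, Rbm45 by 3.23 and 4.19, and Aldh1a7 by -3.34 and -3.50. C1s1 read 10.18, 10.49 and 10.76 against 4.44, 4.50 and 5.40 in the lines and differed by -4.33 between tissues. In 32 of the 41 interferon effectors the line difference exceeded the tissue difference by the test of the difference itself. Over all genes this held in 7.3% (20.3% in either direction). Most of the effectors, 39 of 41, were already called higher between the lines, and that difference is part of the test. Their share therefore cannot be set against that of all genes.

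Replicate 3 of the tsA58 line can be placed on genes that were called without it. These genes were chosen by the difference of replicates 1 and 2 from the C57BL/6J line, which also sets the scale. Replicate 3 can therefore fall short of replicates 1 and 2 by that choice alone. Over 2675 such genes its median position was 50.7% of the way from the C57BL/6J mean to the mean of replicates 1 and 2, and 1323 of them lay nearer to the C57BL/6J mean. It was 76.5% over 40 interferon effectors, 55% over 32 replication genes, 95.3% over 5 imprinted genes and 99.6% over 4 strain and sex check genes, but 22.6% over 8 mesothelial genes, 18.8% over 10 secretome and complement genes and 10.6% over 6 smooth muscle genes.

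**Figure D5:**
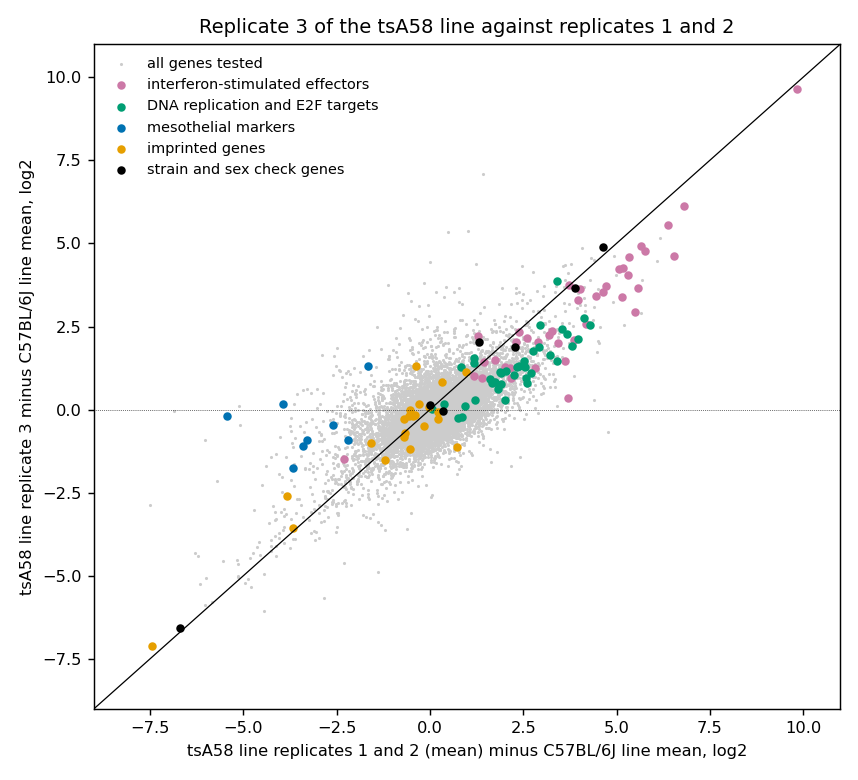
Log2 difference of tsA58 line replicate 3 from the C57BL/6J line mean (y axis) against the same difference of the mean of tsA58 line replicates 1 and 2 (x axis) for 13285 genes, with 5 gene lists coloured and the line of equal differences drawn. The strain and sex check genes and Meg3 lie on the line, the interferon effectors somewhat below it, and the mesothelial markers well above it, where replicate 3 is nearer to the C57BL/6J mean.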

How the data were processed

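Gene expression was measured on Affymetrix mouse genome arrays from RNA amplified in 2 rounds, per the labels' protocols. The authors deposited log2 values made with RMA (background correction, quantile normalization and probe summary), per the submitters' processing notes, with no version given. Raw scans were not used here. Amplification from the 3' end can move values of degraded RNA, and RMA assumes like distributions on all arrays. For each of 18193 genes, the single-symbol probe set with the highest mean over 11 arrays was kept. Genes above the array median on at least 2 arrays (13285) were fitted with 4 group means (lmFit and eBayes of limma 3.58.1, run under R 4.3.3, with 7 residual and 3.494 prior degrees of freedom) and tested with Benjamini-Hochberg adjustment over all genes. Called means adjusted p below 0.05 and at least 2-fold. The number of arrays limits the precision.

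The 40 gene lists (911 of 980 entries found) and the compared groups were chosen with earlier results of these data known. Named genes were the 15 called genes at each end of the ranking, up to 4 called members of each list at each end, and a fixed set of ICC, interferon, cell cycle and check genes, some of which were not analysed here. Other genes are examples chosen after their values were seen. The fit was checked on simulated data. Alternatives were other normalizations, filters, probe set rules, array weights, an actin covariate, a variance trend, the 6 line arrays alone, a replicate block, and each line array left out. Sequences came from RefSeq (GRCm38.p6). Python 3.11.15 was used for tables.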

Additional observations from a re-analysis of the deposited data

Results flagged for a closer look

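The difference between the lines was set against the difference between muscle wall of the same strains with an interaction term in limma, and 2702 of 13285 genes passed (20.3%). Of 180 named genes called between the lines, 117 passed this test, and 11 were called in opposite directions in the lines and in muscle wall. Most named genes were picked for a large line difference, which is part of the interaction term. Their share therefore cannot be set against that of all genes. Higher in the tsA58 line and lower in tsA58 muscle wall were Rrm2 (a difference of the differences of 7.07), the neural crest factor Snai2 (5.01), Hells (4.73) and Jag1 (3.29). Lower in the tsA58 line and higher in tsA58 muscle wall were Dkk3 (-5.51), H2-Eb1 (-5.46), Pfkfb3 (-3.46, on 1 of 2 probe sets), Hspb8 (-3.39), Hoxa4 (-2.81), Srxn1 (-2.60) and Fgf1 (-2.35).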

How the results depend on the processing

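Centring on the hybridisation controls gave 7582 higher, 96 lower and 577 genes with a line difference unlike the tissue difference, and higher calls were 98.7% of all calls against 59.2%. Array weights, whose estimation stopped before it converged, gave 1777 higher and 4365 such differences, the actin ratio as a covariate 2121 higher, and no minimum fold 1431 lower. Leaving out 1 line array gave 762 to 1687 higher, 586 to 988 lower and 1967 to 3697 differences, with the highest counts without tsA58 line replicate 3. Of 180 named genes called, 168 kept their sign under all 18 settings fitted and 90 stayed called. The replicate numbers did not pair the arrays (correlations of deviations -0.08, 0.25 and 0.00385), and the fit with the replicate block gave 868 higher and 708 lower. Signs turned with hybridisation centring for Kit (1.40), Insr (1.20), Hspa1a (1.18), Itga6 (0.45), Fgf1 (0.40), Hmga2 (0.39), Cd14 (0.32), Fdft1 (0.30), Nr4a2 (0.25), Gpm6b (0.19), Srxn1 (0.12), Mirg (0.10), Hoxa2 (0.10), Cd68 (0.08) and Hoxa4 (0.02). They also turned with the actin covariate for Ano1 (-0.10) and Insr (0.85), with array weights for Glo1 (-0.05), with the mean of probe sets for Glo1 (-0.08), and without 1 array for Kit (from -0.23 to 0.08 over the 6 arrays left out in turn) and Insr (from -0.66 to 0.15). The causes were not tested. Probe sets near the array median give no measure of low levels.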
